A study of Homo sapiens with 4 samples.

Results

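The loci of 6 genes whose expression marks the classical subtype of pancreatic ductal adenocarcinoma were examined for GATA4 occupancy: LGALS4, the neighbours CEACAM5 and CEACAM6, the neighbours AGR2 and AGR3, and CLDN18. They were chosen by name, with earlier results of these data known. Together they gave 4 windows on chromosomes 19, 7 and 3, each the gene or gene pair with 50 kb on either side. An interval of the GATA4 list was a member when it overlapped a window by 1 bp or more, which gave 26 of the 21308 intervals in the list. Of these, 17 lay around LGALS4, 6 around AGR2 and AGR3, 2 around CEACAM5 and CEACAM6, and 1 near CLDN18. That the genes mark the classical subtype comes from the literature, and their expression in these cells was not analysed here.

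The list came from 4 CUT&RUN libraries of PaTu8988S, an established human pancreatic adenocarcinoma line, in which a nuclease tethered to an antibody against GATA4 (MAB2606, 10 ug for 500000 cells) released the DNA beside the bound protein. All 4 libraries formed a single group with no treatment or genetic change named. The labels number them 1 to 4 without saying whether they came from separate cultures, and a control antibody was not analysed here. The intervals are those common to the 4 libraries and carry a chromosome, a start and an end but no score, so depth is unknown, spread between libraries could not be measured, and every comparison below is along the genome, as a description without a test.

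GATA4 is a transcription factor with zinc fingers that binds short sequences around the letters GATA, and with its paralogue GATA6 it takes part in specifying stomach, intestine and pancreas. The classical subtype of pancreatic cancer keeps features of a differentiated, mucus-producing epithelium, and the 6 genes belong to that phenotype. LGALS4 encodes galectin-4, a galactoside-binding lectin of the gut lining. CEACAM5, known as carcinoembryonic antigen, and CEACAM6 encode adhesion glycoproteins of the epithelial surface. AGR2 and AGR3 encode members of the protein disulfide isomerase family, and AGR2 serves the folding of mucins in the endoplasmic reticulum. CLDN18 encodes a claudin of tight junctions, known from stomach and lung.

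The sequences before the gene starts are shown because GATA4 is a sequence-reading factor and because the loci differed in whether an interval lay at the start. Each run is the 250 bases before a RefSeq start, read in the direction of the gene, from build GRCh38.p14, which is not the build of the intervals. Capitals mark matches on either strand to AGATAA or TGATAA, forms of the GATA motif, and to TGTTTAC, a form of the forkhead motif. The AGR3 run is chr7:16881984-16882233 (minus strand), the AGR2 run chr7:16805000-16805249 (minus), the LGALS4 run chr19:38812946-38813195 (minus) and the CLDN18 run, from the first of its 2 listed starts, chr3:137998566-137998815 (plus).
AGR3: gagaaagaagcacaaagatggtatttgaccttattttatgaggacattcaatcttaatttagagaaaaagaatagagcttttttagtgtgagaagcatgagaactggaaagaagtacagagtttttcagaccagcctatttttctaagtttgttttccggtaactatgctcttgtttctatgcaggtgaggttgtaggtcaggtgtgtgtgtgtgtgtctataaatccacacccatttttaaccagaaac
AGR2: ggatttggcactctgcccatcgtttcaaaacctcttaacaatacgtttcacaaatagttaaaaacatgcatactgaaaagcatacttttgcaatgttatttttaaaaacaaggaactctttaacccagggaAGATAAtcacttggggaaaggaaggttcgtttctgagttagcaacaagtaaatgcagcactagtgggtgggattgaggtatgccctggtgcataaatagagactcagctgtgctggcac
LGALS4: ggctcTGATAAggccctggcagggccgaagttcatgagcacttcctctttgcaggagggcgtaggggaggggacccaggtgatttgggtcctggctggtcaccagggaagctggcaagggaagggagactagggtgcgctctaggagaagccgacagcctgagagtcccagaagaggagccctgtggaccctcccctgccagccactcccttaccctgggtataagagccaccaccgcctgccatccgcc
CLDN18: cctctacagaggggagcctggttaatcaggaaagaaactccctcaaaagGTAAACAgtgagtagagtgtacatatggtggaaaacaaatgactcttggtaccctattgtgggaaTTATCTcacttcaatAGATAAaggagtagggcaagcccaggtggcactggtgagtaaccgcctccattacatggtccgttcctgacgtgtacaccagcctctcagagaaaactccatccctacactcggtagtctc

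RefSeq starts of all 6 genes were matched, 7 in number because CLDN18 had 2. AGATAA occurred before the AGR2 start, ending 114 bases from it, and at 2 places before the first CLDN18 start, once on each strand. TGATAA occurred before the LGALS4 start, ending 240 bases from it. So 3 of the 7 promoters held one of these GATA forms on either strand, against 14.6% of the 35116 RefSeq promoters searched over the same length. The first of these forms was held by 9.17% of all promoters and the other by 6.66%. The forkhead form was found before the first CLDN18 start, on the opposite strand, and in 2.98% of all promoters. A further forkhead form, TGTTTGC, was found before none of the 7 starts and in 3.23% of all promoters. The HNF4 form CAAAGTCCA was likewise found before none of the 7, and in 0.325% of all. The runs of AGR3, CEACAM5, CEACAM6 and the other CLDN18 start held none of the 5 motifs. A match describes letters in these windows and not a bound site. The 250-base runs of CEACAM5 and CEACAM6 aligned with 74.6% identical columns and those of AGR2 and AGR3 with 50.9%, while the 19 other pairs among the 7 gave 41.4% to 52.4%.

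**Figure D1:**
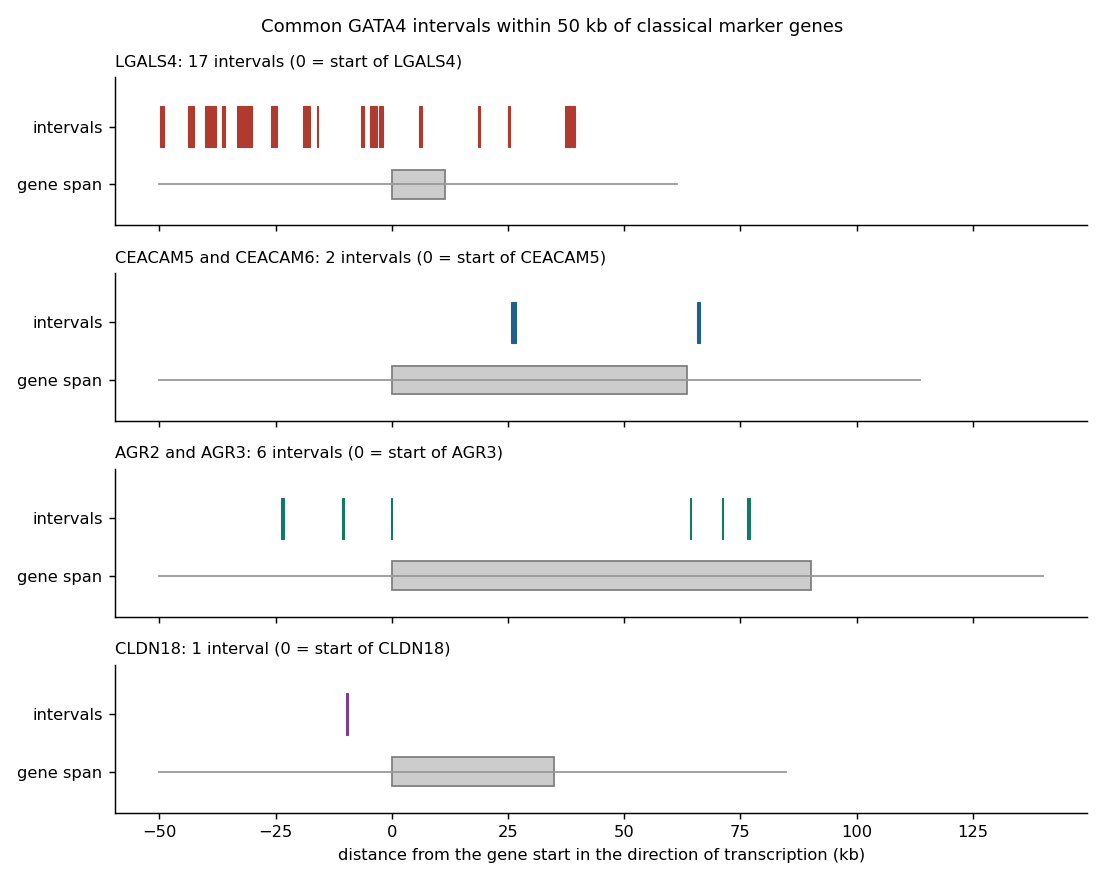
Intervals within 50 kb of each gene or gene pair, by distance in kb from the gene start in the direction of transcription (coloured bars: intervals drawn to scale; grey boxes: gene span; thin line: the window). The 12 intervals to the left of the LGALS4 start contrast with 1 inside its span, and at AGR2 and AGR3 an interval lies on the AGR3 start at 0.

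With the flanks of 50 kb LGALS4 had the most intervals of the 4 loci, and most of them lay before its start. Within the gene spans alone the order of counts differed, with 1 interval at LGALS4 and 4 at AGR2 and AGR3. These spans differ in length, 11.4 kb against 90.2 kb, and intervals covered 5.97% and 1.74% of them. LGALS4 runs from 39292311 to 39303740 on the minus strand of chromosome 19 (hg19), so positions above 39303740 precede its start. Its window of 111 kb held 17 intervals that covered 16.1% of it, or 15.3 intervals per 100 kb against 1.63 over the chromosome. Of the 17, 12 lay before the start, 1 inside the gene and 4 beyond the end. The intervals covered 29.2% of the 50 kb before the start, 5.97% of the gene and 5.23% of the 50 kb beyond the end.

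No interval reached the LGALS4 start itself. The nearest ran from 39305608 to 39306422, 1868 bp before the start, and was 814 bp wide. The next, from 39306808 to 39308404 (1596 bp), followed after a gap of less than 1 kb, and one from 39309780 to 39310462 (682 bp) lay 6.04 kb before the start. The first 10 kb before the start thus held 3 intervals, and the following stretches of 10 kb held 2, 1, 4 and 2. The only interval within the gene, from 39297143 to 39297825 (682 bp), lay 5.92 kb downstream of the start. The coordinates used give the ends of the gene but not its exons, so whether this interval is exonic or intronic was not determined.

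The wide intervals of the LGALS4 window were those before the start. The widest, from 39341590 to 39344016, measured 2426 bp, more than 97.4% of the intervals of chromosome 19, and lay 37.9 kb before the start. An interval of 1742 bp (39333909 to 39335651) and one of 1263 bp (39335719 to 39336982) were separated by 68 bp, the shortest gap of the window. Of the 12 intervals before the start, 7 were 1000 bp or wider, the median was 1317.5 bp and the range 336 to 2426 bp. Of the 4 beyond the end, 1 was, from 39265280 to 39266392 (1112 bp), and the others measured 633, 450 and 420 bp. Over all 17 the median width was 895 bp, and 8 exceeded 1061 bp, the upper quartile of chromosome 19 (median 702 bp). The widths before the start and beyond the end overlapped, and 1 narrow interval of 336 bp, from 39319580 to 39319916, lay among the wide ones.

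Other genes adjoin LGALS4. In the RefSeq gene order of GRCh38.p14 the nearest protein-coding genes on the side before its start are ECH1, a mitochondrial and peroxisomal isomerase of fatty acid oxidation, then HNRNPL, an RNA-binding splicing regulator, and RINL. On the side of its end they are LGALS7B and LGALS7, which encode galectin-7, and CAPN12. Which of these genes lie within 50 kb in hg19, and which an interval belongs to, was not determined.

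Against chromosome 19 as a whole the LGALS4 window was among the fullest, yet among its immediate neighbours it was the emptiest. Of 528 other windows of equal length laid end to end over the chromosome, 43.6% held at least 1 interval and 15 (2.84%) held 17 or more. The median window held 0, the mean was 1.80 and the highest count 57, so LGALS4 stood at 9.46 times the mean. In covered length it was passed by 12 of the 528. The 5 windows on the lower side of LGALS4 held 22, 20, 27, 23 and 34 intervals in order of position, and the 5 on the upper side 36, 57, 41, 42 and 44. All 10 thus held more than the 17 of the LGALS4 window, as did a further 2 on the lower side with 19 and 21. Beyond these 12 windows the count fell to 9 on the lower side and to 0 on the upper side.

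In covered length LGALS4, at 16.1%, was also lower than each of the 5 windows on either side, which had 16.6% to 56.8%. It was higher than the further 2 on the lower side, with 13.9% and 13.5%. Other placements of these neighbouring windows were not compared. Among the 88 windows centred within 5 Mb the mean count was 5.83, so that the ratio of LGALS4 to the mean was 2.92 in place of 9.46. DNA copy number was not analysed here.

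**Figure D2:**
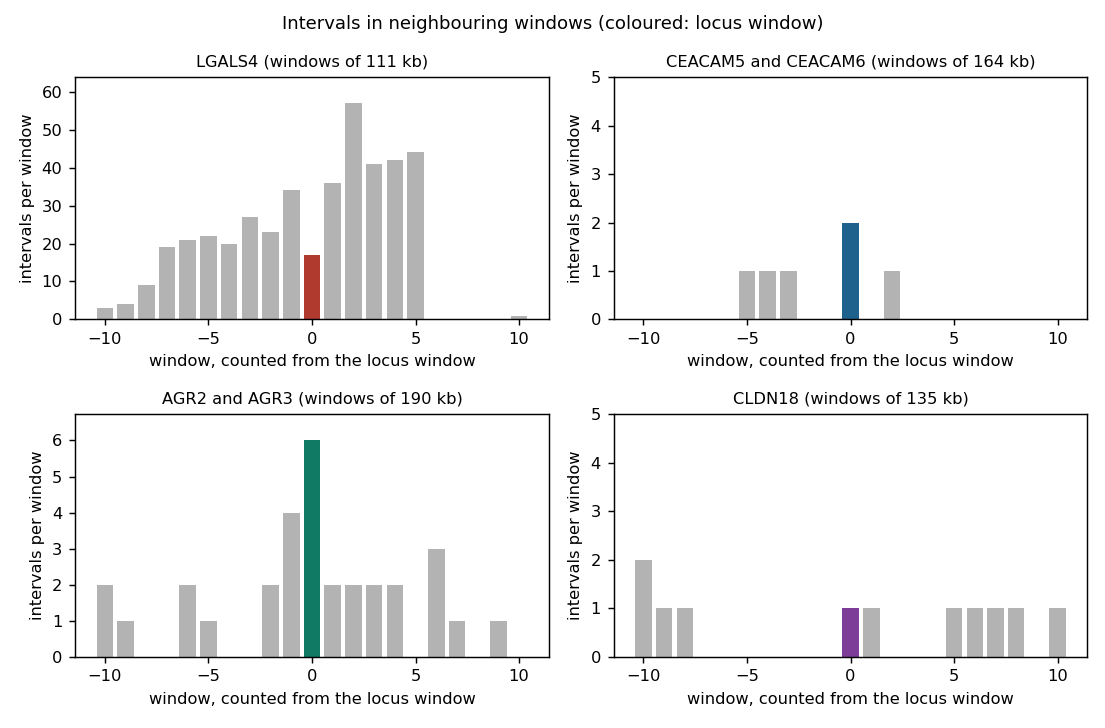
Intervals per window in up to 10 windows of equal length on either side of each locus, in order of position along the chromosome (coloured bar: the locus window; grey bars: neighbours). The LGALS4 bar of 17 is lower than the 5 on each side. The AGR2 and AGR3 bar of 6 and the CEACAM5 and CEACAM6 bar of 2 are each the highest of their panel.

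The list went on beyond both borders of the LGALS4 window, closely on the side of the gene start and after a longer stretch on the other. On the side of the gene start the last member, from 39352772 to 39353667, ended 73 bp inside the window, and the next interval, from 39355087 to 39355806, began 1.35 kb outside it. On the other side the outermost member, from 39264410 to 39265043, lay 22.1 kb inside, and the next interval, from 39235934 to 39236769, lay 5.54 kb outside. The stretch between these last 2 is the longest without an interval that touches the window. Neighbouring members were parted by a median of 3.41 kb (16 gaps, 68 bp to 11.9 kb), against 4.24 kb between neighbours over chromosome 19. Gaps inside a window are limited by its length, so these medians are not like for like.

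AGR2 and AGR3 lie side by side on the minus strand of chromosome 7, with AGR3 starting the pair at 16921613 and AGR2 ending it at 16831435 (hg19). Their window of 190 kb held 6 intervals covering 1.48% of it, and an interval lay across the start of AGR3. The gene spans place 4 starts in hg19, those of LGALS4, CEACAM5, AGR3 and CLDN18, and of these 4 the AGR3 start was the one that an interval reached. The starts of AGR2 and CEACAM6 and the second RefSeq start of CLDN18 are not among them. The interval at the AGR3 start ran from 16921494 to 16921816 and was 322 bp wide. It covered 203 of the 250 bases before the start, with the remaining 119 bp inside the gene. The start here is the one the gene span gives in hg19, and the AGR3 sequence printed above is that of the RefSeq start in the other build.

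The other 5 intervals fell into a pair before AGR3 and a group of 3 near the AGR2 end of the span. Before AGR3, 1 interval of 431 bp (16931798 to 16932229) stood 10.2 kb from the start and another of 621 bp (16944861 to 16945482) stood 23.2 kb from it. Towards AGR2, the interval from 16857170 to 16857521 (351 bp) lay 25.7 kb from the AGR2 end. The interval from 16850235 to 16850552 (317 bp) lay 18.8 kb from that end. The widest of the window, from 16844474 to 16845255 (781 bp), lay 13.0 kb from it. Between this group and the interval at the AGR3 start lay 64.0 kb without any interval, the longest gap of the window. The span is given for the pair as a whole and does not place the AGR2 start in hg19. In GRCh38.p14 the RefSeq starts of AGR3 and AGR2 lie 77.0 kb apart, and in hg19 the interval of 781 bp lies from 76.4 to 77.1 kb downstream of the AGR3 start. An interval at the AGR2 start would stand at such a distance if the spacing is the same in hg19, which was not checked. No interval lay in the 50 kb beyond the end of AGR2, and the nearest, from 16758667 to 16758912, was 72.5 kb from the gene.

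The AGR2 and AGR3 intervals were narrow for chromosome 7, and more numerous than in most windows of equal length. The median member measured 391 bp, whereas the chromosome's 1345 other intervals had a median of 553 bp, and 4 of the 6 were narrower than its median of 552 bp. The interval of 781 bp towards AGR2 was wider than 75.4% of the chromosome's intervals, and the one at the AGR3 start wider than 12.1%. The 5 gaps between neighbours had a median of 9.98 kb, against 31.3 kb over the chromosome. Gaps inside a window are limited by its length and those over the chromosome are not, so this comparison largely restates the count. Of 834 other windows of equal length, 53.0% held at least 1 interval and 53 (6.35%) held 6 or more; the mean was 1.61 and the highest 58, so the pair stood at 3.73 times the mean. None of the 52 windows centred within 5 Mb held as many, their highest count being 5 and their mean 0.827. The adjoining windows held 4 and 2. In the RefSeq order of GRCh38.p14 the nearest genes are TSPAN13 beyond AGR2 and AHR, the aryl hydrocarbon receptor, beyond AGR3.

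CEACAM5 and CEACAM6 had 2 intervals in 164 kb, neither of them near the CEACAM5 start. The pair runs from 42212530 to 42276113 on the plus strand of chromosome 19 (hg19), with CEACAM5 first. One interval, from 42238259 to 42239161 (902 bp), lay within the span of the pair, 25.7 kb from the CEACAM5 start. The other, from 42278296 to 42278828 (532 bp), lay 2183 bp beyond the end of CEACAM6. No interval lay in the 50 kb before CEACAM5. Whether the first lies in CEACAM5 or between the genes was not determined, since the span is given for the pair. The RefSeq starts of CEACAM5 and CEACAM6 lie 46.9 kb apart in GRCh38.p14, and in hg19 the intervals lie 25.7 and 65.8 kb downstream of the CEACAM5 start. Reads from stretches nearly identical between CEACAM genes cannot be told apart in this list, and how such reads were placed is not given in the sources used here.

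The count at CEACAM5 and CEACAM6 was above the median of chromosome 19 but below its mean. The ratio to the mean moved with the windows used. Of 359 other windows of equal length, 52.4% held at least 1 interval and 31.8% held 2 or more. The median was 1, and 245 of the 359 held fewer than the pair. The mean was 2.68, with a highest count of 71, which put the pair at 0.747 times the mean. The ratio was 0.248 among the 60 windows centred within 5 Mb, whose mean was 8.07. Their median was also 1 and their highest count also 71, and 37 of them held fewer than the pair. With a flank of 10 kb the ratio was 1.45, so the pair's side of the mean depended on the flank. The 2 intervals covered 0.877% of the window. Both widths lay within the quartiles of the chromosome (504 and 1061 bp). The surroundings were sparse: the nearest intervals outside, from 41769558 to 41770173 and from 42579956 to 42580532, were 442 and 304 kb from the pair. The 5 windows below held 3 intervals in all and the 5 above held 1. The pair lies on the same chromosome as LGALS4, whose 5 neighbouring windows on the lower side held 126 and on the upper side 220. The order of genes is CEACAM7 and CEACAM4 before the pair and CEACAM3 after it.

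CLDN18 had a single interval, which lay before its start. The gene runs from 137717658 to 137752494 on the plus strand of chromosome 3 (hg19). The interval, from 137707715 to 137708255, was 540 bp wide and ended 9.40 kb before the gene start, the one that the gene span gives. The second RefSeq start lies further downstream, its run being chr3:138009915-138010164 in GRCh38.p14. How far the interval lies from that start in hg19 was not determined. No interval overlapped the gene, and none lay in the 50 kb beyond its end. The width was close to the chromosome median of 561 bp, with 46.9% of the chromosome's intervals narrower.

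On chromosome 3 most windows of equal length held no interval. Of 1435 other windows of 135 kb, 1004 were empty, 213 held 1 and 218 held more than 1, so 30.0% held at least 1 interval. The median was 0 and the mean 0.936, and the ratio of CLDN18 to the mean was 1.07. The ratio was 2.74 among windows within 5 Mb and 2.60 with a flank of 10 kb, but 0.613 with 100 kb, so with 1 interval its side of the mean depended on the flank. The interval was isolated on the lower side, where the next, from 136618353 to 136619071, was 1099 kb from the gene. The nearest genes on that side in the RefSeq order are SOX14 and IL20RB. On the upper side, towards DZIP1L, the next ran from 137854030 to 137854650 and was 102 kb from the gene. The 5 windows below held 0 intervals and the 5 above held 2.

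**Figure D3:**
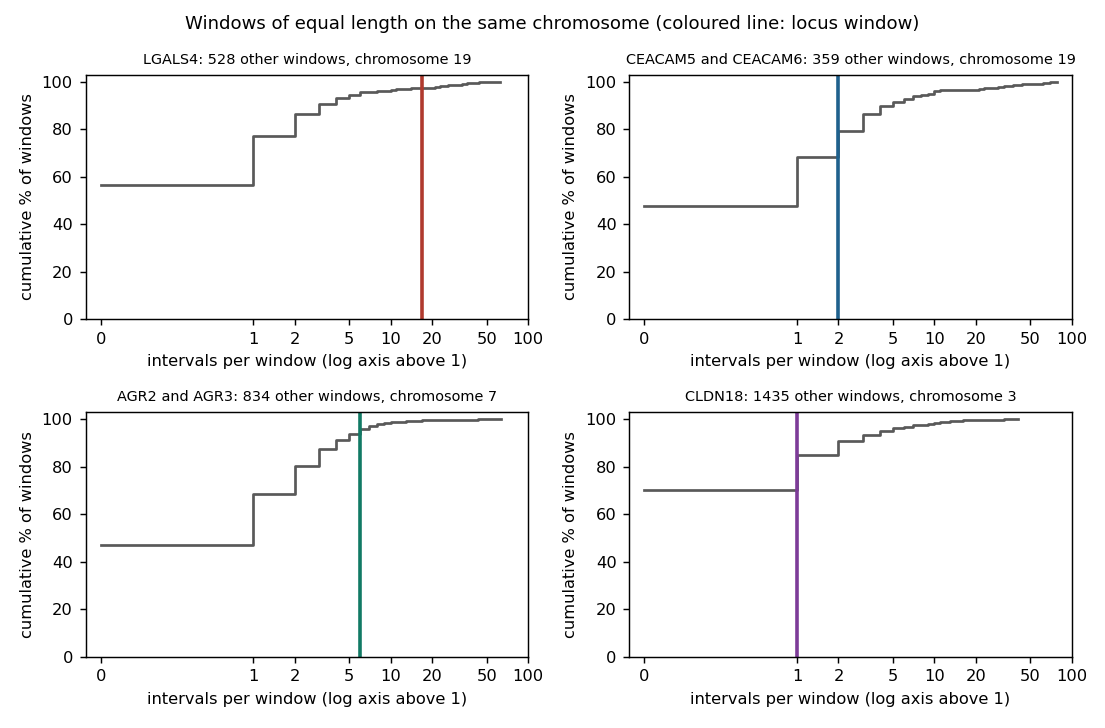
Cumulative percentage of the other windows of equal length on the same chromosome (vertical axis) by intervals per window (horizontal axis, log above 1), with the locus window as a coloured line. LGALS4 at 17 and AGR2 and AGR3 at 6 lie on the upper part of their curves, while CEACAM5 and CEACAM6 at 2 and CLDN18 at 1 lie where 31.8% and 30.0% of windows hold as many or more.

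Set side by side, the loci differed in number, place and width of intervals. Per 100 kb of window, LGALS4 held 15.3 intervals, AGR2 and AGR3 3.15, CEACAM5 and CEACAM6 1.22 and CLDN18 0.742, against 1.63, 0.850, 1.63 and 0.695 over their chromosomes. Within 5 kb of the 4 starts placed in hg19 there were 2 intervals at LGALS4, 1 at AGR3, and 0 at CEACAM5 and CLDN18; within 20 kb there were 7, 2, 0 and 1. All 8 intervals of 1000 bp or more were in the LGALS4 window, which held 17 of the 26 intervals. The upper quartile of width was 1061 bp on chromosome 19, 777 bp on chromosome 7 and 808 bp on chromosome 3. The share of all intervals that reach 1000 bp was not counted. The orders of the loci hold for 4 windows in a single pooled list, and without a spread between libraries no difference between loci was tested.

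**Figure D4:**
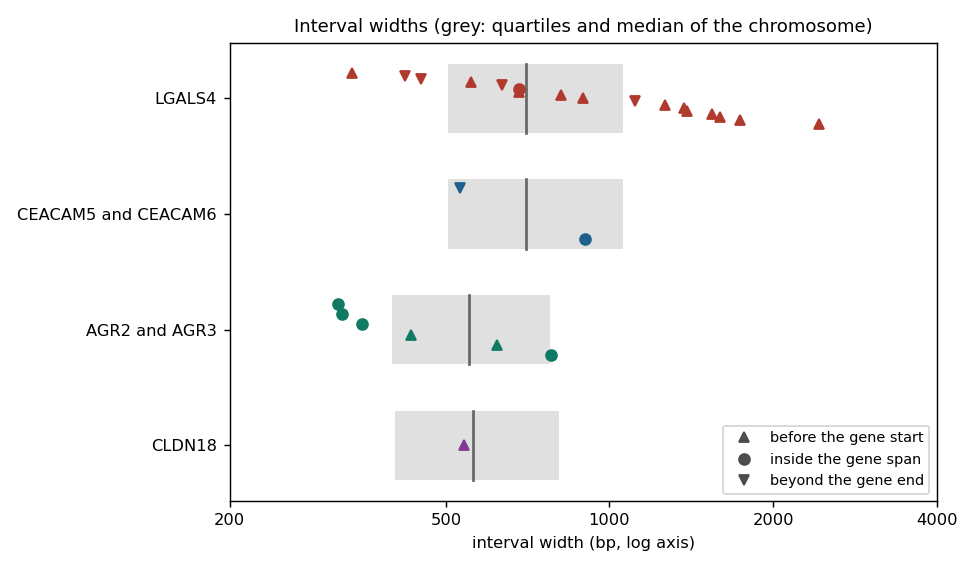
Width in bp (log axis) of each of the 26 intervals by locus, with the symbol giving its place relative to the gene (grey box: quartiles of all intervals of the chromosome; grey line: their median). The LGALS4 intervals range from 336 to 2426 bp, with the widest before the gene start, and 3 of the 4 intervals within the AGR2 and AGR3 span are narrower than the lower quartile of chromosome 7 (398.5 bp).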

How the data were processed

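The deposited list gives 3 columns per interval (chromosome, start and end, in bp) and holds 21308 intervals, 0 of them duplicated. Per the labels the authors made it from 4 CUT&RUN libraries as the peaks common to all of them. Per the submitters' processing notes they used SEACR and HOMER with build hg19; the sources used here give no version or parameter, nor the overlap that made a peak common. A strict rule for common peaks removes sites seen in fewer libraries, and nearby peaks can be pieces of one site. Whether starts count from 0 or 1 is not stated, so a width may be 1 bp too small.

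The 6 genes, their hg19 spans and the lists were chosen with earlier results of these data known. Strand, gene order and promoters came from RefSeq tables of GRCh38.p14, none of whose positions was converted to hg19; only distances between paired starts are set beside hg19 distances. Intervals were counted by any overlap of 1 bp, and windows of equal length were laid end to end from the locus window, between the first and last interval of the chromosome. An interval across a border counts in both windows, and neighbouring windows are not independent. All intervals of the 4 windows are described; the widest, the nearest to the start and those inside the span are given by position. Promoters were aligned globally with Biopython 1.88. Python 3.11.15, numpy 2.4.6, pandas 2.3.3 and matplotlib 3.10.9 were used; window counting was checked on simulated data. Alternatives were flanks of 0, 10, 25 and 100 kb, interval centres, merging within 1 kb, wide intervals only, and other sets of windows. A list of other classical genes was not analysed here, as an hg19 annotation was not used.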

Additional observations from a re-analysis of the deposited data

How the results depend on the processing

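Of 91 recomputed values, 59 stayed within 1.5 times the reported one and 32 did not. The 19 median widths all stayed. At CLDN18 each setting that gave a median held the same interval, and without a flank there were 0 and no median. At CEACAM5 and CEACAM6 all settings but the one without a flank held the same 2. These medians could not move, while without a flank that of CEACAM5 and CEACAM6 was 902 bp in place of 717 bp. Counts depended on the flank at LGALS4, with 1 interval without a flank, 5 with 10 kb, 9 with 25 kb and 50 with 100 kb. Without a flank AGR2 and AGR3 held 4 in a span of 90.2 kb, against 1 at LGALS4 in 11.4 kb. CEACAM5 and CEACAM6 then kept 1 and CLDN18 0. Among intervals at or above the list's median width CEACAM5 and CEACAM6 held 1, CLDN18 0, and AGR2 and AGR3 2. The covered share of LGALS4 was 5.97% without a flank and 27.0% with 100 kb. That of CEACAM5 and CEACAM6 was 1.42%, 1.72% and 0.544% with flanks of 0, 10 and 100 kb, and that of CLDN18 0%, 0.985%, 0.637% and 0.230% with 0, 10, 25 and 100 kb. The ratio to the mean of other windows, when only windows with an interval were used, was 4.12 for LGALS4, 0.391 for CEACAM5 and CEACAM6, 1.98 for AGR2 and AGR3 and 0.321 for CLDN18, since empty windows then drop out of the mean. Within 5 Mb it was 2.92, 0.248, 7.26 and 2.74 in the same order. With a flank of 10 kb it was 1.45 for CEACAM5 and CEACAM6 and 2.60 for CLDN18, above the mean; with 100 kb it was 0.464 and 0.613, below it, and 15.2 for LGALS4. Among wide intervals CLDN18 gave 0. LGALS4 and AGR2 and AGR3 stayed above the mean of other windows under all 7 of these alternatives. Shifted windows moved no ratio by over 1.5 times. Leaving out a library was not run, because the list gives no value by library. No paired analysis was possible because the 4 numbered libraries form a single group in a pooled list. No depth is known, so an empty stretch means only that no common interval is listed there.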

Other observations

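The rows of the list are not in order of position, and their widths change partway through it. The row at which log2 width splits best, a measure chosen after seeing the data, is 10560: the rows up to it have a median width of 438 bp (quartiles 333 and 574 bp) and the 10748 rows after it 803 bp (quartiles 592 and 1142 bp). Of the 26 intervals around the classical marker genes, 12 stand in the earlier rows (median 440.5 bp) and 14 in the later (median 1187.5 bp). In the whole list 10748 of the 21308 rows are later ones. By locus, 12 of the 17 LGALS4 intervals stand in the later rows, against 1 of 6 at AGR2 and AGR3, 1 of 2 at CEACAM5 and CEACAM6 and 0 of 1 at CLDN18. The split was placed by width, so these counts also reflect the widths of the intervals, and shares by chromosome were not counted. The interval on the AGR3 start is in the earlier rows. What the order of rows stands for is not given in the sources used here.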
